A study of Mus musculus with 12 samples.

Results

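Complement genes were followed in mouse bone marrow-derived macrophages of 2 genotypes, with and without a 2-hour stimulus. The 10 genes were the rows of the deposited count table named C1qa, C1qb, C1qc, C3, C4b, Cfb, Cfp, C3ar1, C5ar1 and Cd59a, out of 54532 genes in the table, and all 10 were among the 13800 genes with enough counts to be tested. Marrow cells came from 8-week-old male mice whose genotypes the labels name Itga9-Lyz2-cKO and Itga9-Lyz2-cHet, shortened here to cKO and cHet. All cultures received M-CSF, a macrophage growth factor, at 50 ng/mL, and were left as controls or exposed for 2 hours to what the labels call Pg, a term they do not expand, at a multiplicity of infection of 1:20. Each of the 4 groups held 3 libraries. Lyz2-Cre acts in myeloid cells, and both genotype names carry it, so the comparison group is itself not described as unmodified. Nothing in the labels ties the 3 libraries to separate mice or separate cultures. P-values therefore measure only library-to-library spread, possibly technical.

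Complement is a set of blood and tissue proteins that mark microbes and debris for removal. It starts when C1q binds a target, when lectins bind sugars, or when C3 activates spontaneously, and all 3 routes meet in the cleavage of C3 and then of C5. The fragments C3a and C5a call in and activate myeloid cells through the receptors C3AR1 and C5AR1, while regulators such as CD59 protect host cells from the pore that complement can form. The liver makes most circulating components, and macrophages are a main source of C1q and properdin in tissue.

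The targeted gene was checked first. Itga9, which encodes the integrin alpha9 chain, ranged from 17.9 to 34.0 CPM (counts scaled to a common library size) in the 6 cHet libraries and from 5.98 to 13.6 CPM in the 6 cKO libraries, with a mean log2 difference of -1.46 ± 0.26 (SE, adjusted p 0.0118, edgeR quasi-likelihood test with Benjamini-Hochberg adjustment, as for every adjusted p here). A gene with an adjusted p below 0.05 is said to be called, and Itga9 was called in controls (0.0497) and not under Pg (0.125). Lyz2, the lysozyme gene whose locus carries Cre in Lyz2-Cre mice, was also lower in cKO, by a log2 difference of -0.97 ± 0.06 (adjusted p 6.44e-08). RNA of more than Itga9 thus differed between the genotypes, and the cause of the Lyz2 difference was not tested. All 10 macrophage markers were tested, with Csf1r at group means of 4285 to 4903 CPM and Adgre1 at 1273 to 1548 CPM. The macrophage markers summed to 26117 to 33694 CPM in the 6 cHet libraries and to 17186 to 23155 CPM in the 6 cKO libraries, without overlap. Lyz2 alone was at group means of 19366 and 19510 CPM in cHet (control and Pg) and 9764.5 and 10142 CPM in cKO. Markers of other blood cells were present too. They summed to 577 to 989 CPM for neutrophils, 233 to 312 for monocytes and 147 to 228 for B and plasma cells. Erythroid and megakaryocyte markers summed to 192 to 533 CPM, and dendritic markers to 43.5 to 152. Library totals lay between 14527674 and 16793803 counts. Libraries were split into 2 sets that crossed the groups. The split was the sign of the third principal component of the most variable genes, an axis holding 5.84% of their variance. Itgax separated the sets, at 103 to 137 CPM in 6 libraries (cHet control 1, cHet Pg 2 and 3, cKO control 1, cKO Pg 1 and 2) and at 36.2 to 59.3 CPM in the other 6. Because the sets came from these same data, a call gained with the set as a term is not independent evidence. Itga9 followed the split, at 32.3 to 34.0 CPM in the set of high Itgax and 17.9 to 19.4 CPM in the other in cHet. In cKO it was at 11.5 to 13.6 and 5.98 to 7.84 CPM. The cause of this split was not tested, and results that depend on it are given with their values. Stromal and fibroblast markers, 12 listed and 10 tested with Lum at 0 throughout, summed to 37.2 to 47.2 CPM in the 6 cHet libraries and to 2.74 to 5.92 CPM in the 6 cKO libraries.

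The 10 genes spanned a very wide range of levels. On a per-length scale, CPM per kilobase averaged over the 12 libraries, C1qb stood at 1681 and ranked 15 of 13800 tested genes, C1qc at 632 ranked 46 and C1qa at 532 ranked 58. Properdin (Cfp) followed at 360, C5ar1 at 351 and C3ar1 at 324, at ranks 95, 97 and 105. C3 was lower, at 52.3 and rank 899. The remaining 3 genes were rare transcripts: Cd59a at 2.22 ranked 8519, C4b at 0.544 ranked 11663 and Cfb at 0.174 ranked 13230. Cfp, C5ar1 and C3ar1 lie close together in this order, and that of C5ar1 and C3ar1 differed between groups. C5ar1 per kilobase was 427 ± 10.5 and C3ar1 307 ± 10.5 in cHet with Pg, against 263 ± 9.01 and 312 ± 20.5 in cHet controls (SD, n = 3 each).

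**Figure D1:**
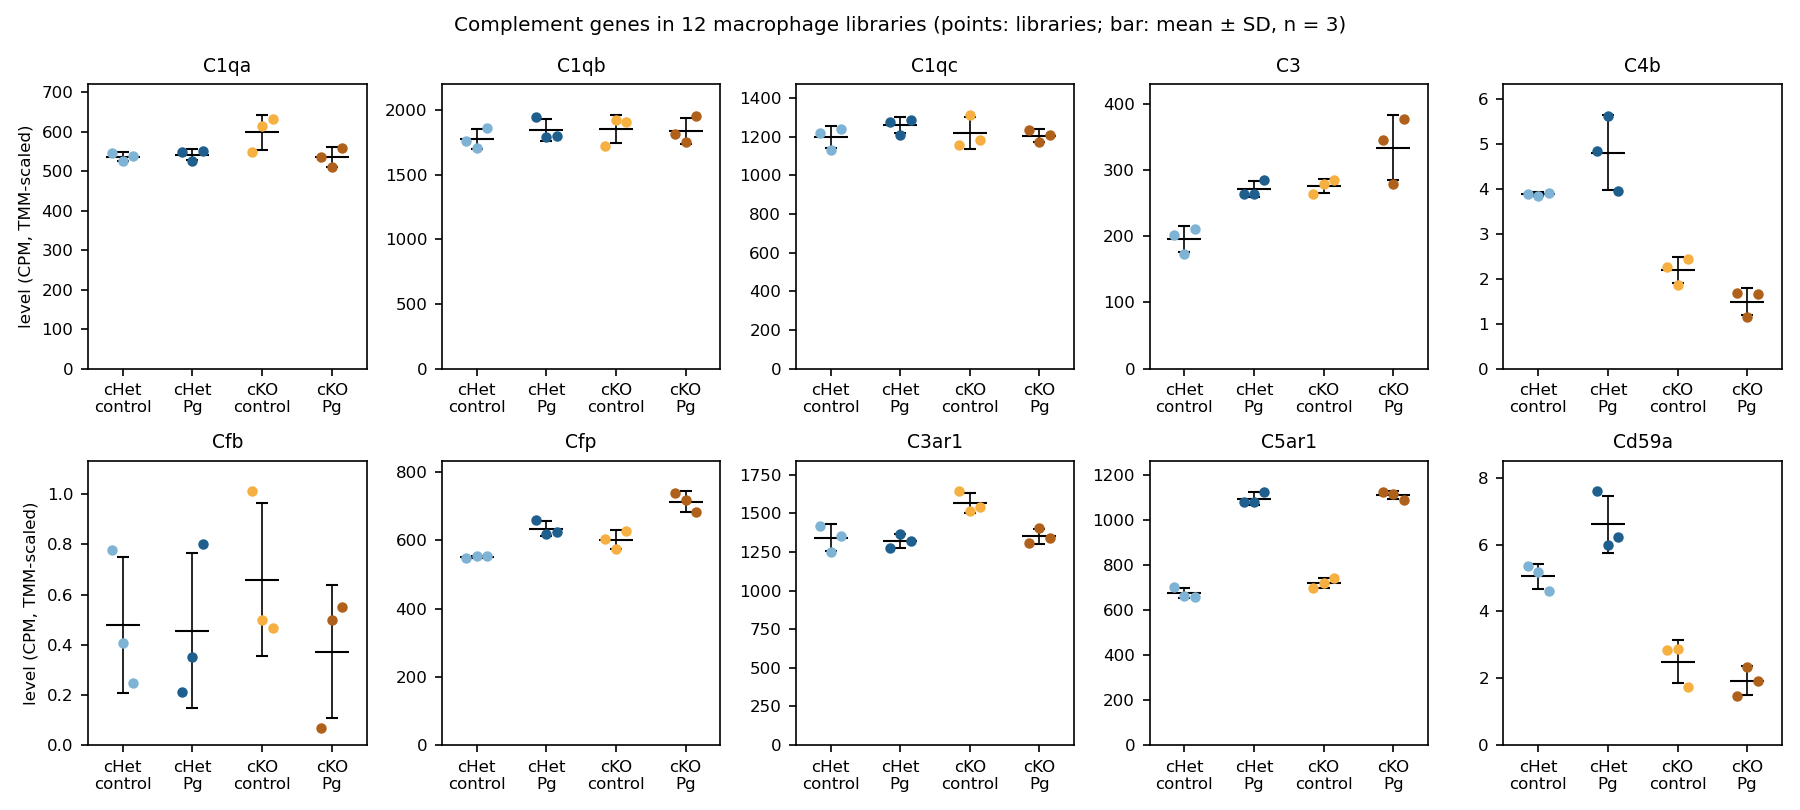
Levels of the 10 complement genes in CPM, scaled by TMM (vertical axis, linear from 0, a different range for each gene), in the 4 groups (horizontal axis). Points are libraries, and bars give mean ± SD of 3 libraries; C5ar1 is higher in both Pg groups, C4b and Cd59a are lower in both cKO groups, and the C1q genes stay within a narrow band.

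The 3 C1q genes encode the A, B and C chains of the recognition molecule of the classical pathway. They lie next to each other within 18675 bases of chromosome 4 in mm10, all on the minus strand: C1qb at 136880129 to 136886187, C1qc at 136889804 to 136893065 and C1qa at 136895917 to 136898803. C1qb was at 1758, 1706 and 1862 CPM in cHet controls and at 1946, 1792 and 1801 CPM with Pg. The cKO values were 1726, 1923 and 1911 CPM in controls and 1814, 1756 and 1952 CPM with Pg, so all 4 groups overlapped. The promoter of C1qb, the most abundant transcript of the 10, is shown first.
C1qb promoter: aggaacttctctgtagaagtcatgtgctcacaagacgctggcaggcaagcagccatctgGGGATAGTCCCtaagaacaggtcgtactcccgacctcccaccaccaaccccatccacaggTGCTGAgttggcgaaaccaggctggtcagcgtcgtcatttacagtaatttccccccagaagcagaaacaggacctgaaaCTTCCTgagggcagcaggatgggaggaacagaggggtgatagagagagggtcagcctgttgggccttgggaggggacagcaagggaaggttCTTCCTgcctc
This RefSeq window (GRCm38.p6, chr4:136886151-136886450, minus strand, printed 5′ to 3′) runs from 250 bases before to 50 bases after the start. Capitals mark matches on either strand to 6 short patterns. They were C/EBP (TTGCNNAA, in 10.8% of 32851 mouse promoter windows of this length), AP-1 (TGANTCA, 7.81%), NF-kB (GGGANNNNCC, 20.7%), a MAF half-site (TGCTGA, 19.5%), a PU.1 and ETS core (AGGAAG, 35.4%) and a TATA box (TATAAA, 13.6%). C1qb held an NF-kB match on each strand, overlapping at -191 and -190 from the start, a MAF half-site at -131 and PU.1 cores at -52 and 40. Such matches describe letters only and common patterns are found in many promoters. Windows were found for 7 of the 10 genes, and not for C1qa, C4b and Cfb.

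Neither C1qb nor C1qc passed the test in any comparison with TMM scaling, although both were lower with Pg under library size alone, as given below. The log2 difference of C1qb with Pg was 0.06 ± 0.07 in cHet (adjusted p 0.549) and -0.01 ± 0.07 in cKO (0.931), and that of C1qc was 0.07 ± 0.06 (0.418) and -0.01 ± 0.06 (0.892). C1qc stood at 1198 ± 57.1, 1258 ± 41.6, 1218 ± 82.8 and 1206 ± 31.2 CPM (SD, n = 3 each) in cHet control, cHet Pg, cKO control and cKO Pg. The genotype differences of both, in controls and under Pg, lay between -0.06 and 0.06.

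C1qa was not called in any comparison, but came near the threshold in cKO. It was at 546, 525 and 539 CPM in cHet controls, 549, 526 and 551 CPM in cHet with Pg, 549, 615 and 632 CPM in cKO controls and 537, 511 and 559 CPM in cKO with Pg. Libraries 2 and 3 of the cKO controls were the high ones, and library 1 was at the level of the other groups. With Pg its log2 change in cKO was -0.16 ± 0.06, just short of the threshold (adjusted p 0.0619), and the threshold was passed without cKO control 1 (0.0134), without cKO Pg 3 (0.0452), with no filter on low counts (0.0338) and with the library set as a term (0.0326). In controls its genotype difference of 0.16 ± 0.06 did not pass (adjusted p 0.187), with no overlap between the groups. It passed with the library set as a term (0.0354) and without the 4 libraries that stand apart from the other 2 of their group (0.00276). The library left out in each group was the one outside the pair with the closest counts. This keeps the most alike libraries and lowers the spread by construction. Both fits also called more of all genes in controls. The share of each chain in the C1q counts per kilobase was nearly fixed over the 12 libraries, at 17.7% to 20.4% for C1qa, 58.1% to 60.6% for C1qb and 20.6% to 23.4% for C1qc.

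C3, the protein on which all 3 routes converge, rose with Pg and was higher in cKO controls with TMM scaling (chromosome 17, 57203970 to 57228136, minus strand, mm10 as for all gene positions here). It was at 202, 174 and 211 CPM in cHet controls and at 264, 263 and 285 CPM in cHet with Pg. The cKO libraries were at 264, 278 and 284 CPM in controls and at 344, 279 and 377 CPM with Pg. Every cHet Pg library was above every cHet control, and every cKO control was above every cHet control, whereas cKO Pg 2 lay within the range of the cKO controls.
C3 promoter: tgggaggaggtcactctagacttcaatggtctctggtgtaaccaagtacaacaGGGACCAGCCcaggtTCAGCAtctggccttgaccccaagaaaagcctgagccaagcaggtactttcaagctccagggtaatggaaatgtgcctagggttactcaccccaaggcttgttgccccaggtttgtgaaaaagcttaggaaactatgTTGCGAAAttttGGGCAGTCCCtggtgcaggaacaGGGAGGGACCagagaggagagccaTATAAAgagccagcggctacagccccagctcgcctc
The C3 window (chr17:57228087-57228386, minus strand, capitals as above) is shown because C3 rose with Pg. It held the C/EBP match TTGCGAAA at -45, NF-kB matches at -197, -33 and -10, a MAF half-site at -182 and a TATA box at 15. C3 rose with Pg in cHet by 0.47 ± 0.09 on the log2 scale, or 1.38-fold (adjusted p 0.00107). In cKO the rise was 0.27 ± 0.09, or 1.21-fold (adjusted p 0.0338). That call was lost without cKO control 1 (0.0999), 2 (0.0747) or 3 (0.059) and without cKO Pg 1 (0.102) or 3 (0.162), and no difference between the 2 responses passed the test (interaction -0.19 ± 0.13, adjusted p 0.61).

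Between genotypes, C3 was 1.41-fold higher in cKO controls, a log2 difference of 0.49 ± 0.09 (adjusted p 0.00591), and this call held under all 20 alternatives tried. Under Pg the difference was 0.30 ± 0.09 and did not pass (adjusted p 0.153), but passed without cKO Pg 2 (0.0201) and with no filter on low counts (0.000816). Averaged over both treatments it was 0.40 ± 0.07 (adjusted p 0.00155). Without the 4 libraries that stand apart (cHet control 1, cHet Pg 1, cKO control 1 and cKO Pg 3), the mean difference was 0.37 with an adjusted p of 0.0546. Within the library sets the C3 difference under Pg was 0.18 in the set of high Itgax, with 2 libraries of each genotype, and 0.51 in the other, with 1 of each.

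Properdin, the plasma protein that stabilises the alternative pathway convertase and is encoded by Cfp on chromosome X (20925454 to 20931555, minus strand), rose with Pg in both genotypes. Cfp was at 548, 553 and 554 CPM in cHet controls and at 659, 618 and 624 CPM with Pg. Its cKO levels were 604, 575 and 628 CPM in controls and 740, 719 and 682 CPM with Pg. The groups did not overlap in either genotype, and the change was small and even. It was 0.20 ± 0.06 in cHet, or 1.15-fold (adjusted p 0.0127), and 0.24 ± 0.06 in cKO, or 1.19-fold (adjusted p 0.00341). The cHet call was lost without cHet Pg 1 (adjusted p 0.0526), and both calls were lost under library size alone.

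Cfp was also slightly higher in cKO, in every control library and every Pg library compared with cHet of the same treatment. Neither difference passed alone, at 0.13 ± 0.06 in controls (adjusted p 0.259) and 0.17 ± 0.06 under Pg (adjusted p 0.195). The latter passed with the library set as a term (0.0284) and without the 4 libraries that stand apart (0.00238), fits that also called more of all genes. The mean of the differences in controls and under Pg, 0.15 ± 0.04, passed narrowly (adjusted p 0.0457). Removing 1 of 9 libraries ended this call, at adjusted p 0.0637 to 0.134: cHet control 1, 2 and 3, cHet Pg 2 and 3, cKO control 1 and 3, and cKO Pg 1 and 2.

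Of the 2 anaphylatoxin receptors, C5ar1 had the largest called rise with Pg among the 10 genes and C3ar1 did not rise. C5ar1 encodes the receptor for C5a, a strong attractant of neutrophils and macrophages, and lies on chromosome 7 (16246743 to 16259540, minus strand). It was at 702, 665 and 660 CPM in cHet controls and at 1079, 1084 and 1128 CPM in cHet with Pg. Among cKO libraries it was at 701, 719 and 745 CPM in controls and at 1126, 1115 and 1092 CPM with Pg. No control library came near a Pg library. C5ar1 rose by 0.70 ± 0.06 in cHet, or 1.62-fold (adjusted p 3.47e-08), and by 0.62 ± 0.06 in cKO, or 1.54-fold (adjusted p 1.56e-07), and it rose past the threshold under all 19 alternatives in each genotype, library size alone included. The genotypes did not differ detectably in C5ar1, at 0.10 ± 0.06 in controls (adjusted p 0.397) and 0.02 ± 0.06 under Pg (0.936).

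C3ar1, the receptor for C3a (chromosome 6, 122847138 to 122856161, minus strand), was not called with Pg in cHet and was called lower in cKO. It was at 1422, 1247 and 1357 CPM in cHet controls and at 1278, 1368 and 1320 CPM with Pg, overlapping groups. In cKO it was at 1643, 1518 and 1544 CPM in controls and at 1310, 1406 and 1342 CPM with Pg, every Pg library below every control. C3ar1 differed by -0.02 ± 0.06 in cHet (adjusted p 0.825) and fell by 0.21 in cKO (SE 0.06, adjusted p 0.0142), a call lost without cKO control 1 (0.0552) or cKO Pg 1 (0.0607). Its higher level in cKO controls, 0.22 ± 0.06, passed narrowly (adjusted p 0.0483). The 2 comparisons share the cKO controls. The call in controls was lost on removing 1 of 9 libraries, at adjusted p 0.061 to 0.198: cHet control 2 and 3, cHet Pg 2 and 3, all 3 cKO controls, and cKO Pg 1 and 2. It was also lost in the fit of only the groups compared (0.0907) and with the replicate number as a block (0.0849). Under Pg the genotype difference was 0.03 ± 0.06 (adjusted p 0.898). Averaged over both treatments it was 0.13 ± 0.04 (adjusted p 0.124), and it passed with no filter on low counts (0.0498), with the library set as a term (0.00748) and without the 4 libraries that stand apart (0.0179). Each of these fits called more of all genes than the main fit did.

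The balance of the 2 receptors can be read within a library, free of any scaling between libraries. The counts were not divided by gene length (4305 bases for C3ar1, 2570 for C5ar1). The ratio thus compares groups and does not say which transcript was more abundant. Per kilobase, C5ar1 was above C3ar1 with Pg, at 427 against 307 in cHet and 432 against 314 in cKO. There were 1.88 to 2.06 counts of C3ar1 for each count of C5ar1 in cHet controls and 2.07 to 2.34 in cKO controls. With Pg the ratio was 1.17 to 1.26 in cHet and 1.16 to 1.26 in cKO. Controls and Pg libraries thus did not overlap in either genotype, and the ratio was lower in every Pg library.

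**Figure D2:**
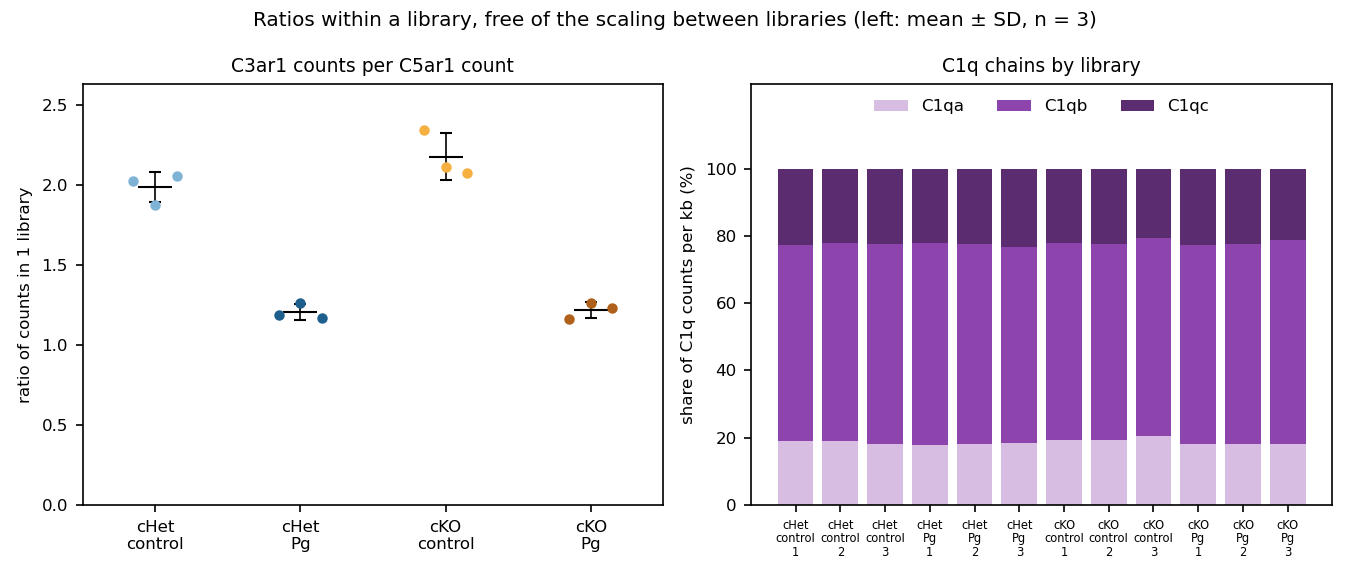
Left, counts of C3ar1 for each count of C5ar1 in a library, not divided by gene length (vertical axis, linear from 0), by group, points for libraries and bars for mean ± SD of 3. Right, share in % of the C1qa, C1qb and C1qc counts per kilobase in each library; the receptor ratio is 1.88 to 2.34 in controls and 1.16 to 1.26 with Pg, while C1qb holds 58.1% to 60.6% in all libraries.

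The receptors' promoters are printed because the 2 genes answered Pg differently.
C5ar1 promoter: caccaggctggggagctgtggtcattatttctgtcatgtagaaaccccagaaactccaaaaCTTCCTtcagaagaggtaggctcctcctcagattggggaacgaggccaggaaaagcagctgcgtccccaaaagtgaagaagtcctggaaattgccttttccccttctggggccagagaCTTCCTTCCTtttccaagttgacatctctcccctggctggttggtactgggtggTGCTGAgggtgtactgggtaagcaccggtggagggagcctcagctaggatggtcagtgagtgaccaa
C3ar1 promoter: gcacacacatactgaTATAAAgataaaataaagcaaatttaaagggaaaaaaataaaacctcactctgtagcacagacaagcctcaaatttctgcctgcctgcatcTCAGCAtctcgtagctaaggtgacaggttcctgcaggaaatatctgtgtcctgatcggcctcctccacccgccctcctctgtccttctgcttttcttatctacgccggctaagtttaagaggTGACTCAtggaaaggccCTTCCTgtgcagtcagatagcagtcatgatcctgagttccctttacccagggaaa
The windows were chr7:16259289-16259588 for C5ar1 and chr6:122856108-122856407 for C3ar1, both on the minus strand of GRCm38.p6 from RefSeq. C5ar1 held PU.1 and ETS cores at -189, -71 and -67, the last 2 overlapping, and a MAF half-site at -17. C3ar1 held the AP-1 match TGACTCA at -22, a PU.1 core at -5, a MAF half-site at -144 and a TATA box at -235. These letters say nothing on which factors act there.

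The counts of members called with Pg were small and stand beside a high background. In cHet 3 of 10 were called higher, C5ar1, C3 and Cfp, where 18% of all tested genes were called higher and 18% lower. No member was called lower in cHet by edgeR, and none fell at an unadjusted p under 0.05 or by DESeq2. In cKO the same 3 genes were called higher and C3ar1 lower, where 16.9% of all tested genes were called higher and 17.1% lower. The median log2 change was 0.14 over the 10 genes and -0.01 over all genes in cHet, and -0.09 and -0.00 in cKO. Scaling by library size alone lowered the median of all genes to -0.25 in both genotypes and turned the members' split into 1 higher and 4 lower in cHet and 1 higher and 6 lower in cKO. Of all 13800 tested genes, 1288 were then called higher and 5438 lower in cHet, and 1229 higher and 5343 lower in cKO. These member counts are therefore read only beside that general shift. Under that scaling C5ar1 was still higher, at 0.46 in cHet and 0.38 in cKO, C3 at 0.22 and 0.03 and Cfp at -0.04 and 0.00 were not called, and C1qa, C1qb, C1qc and C3ar1 were called lower in both genotypes.

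**Figure D3:**
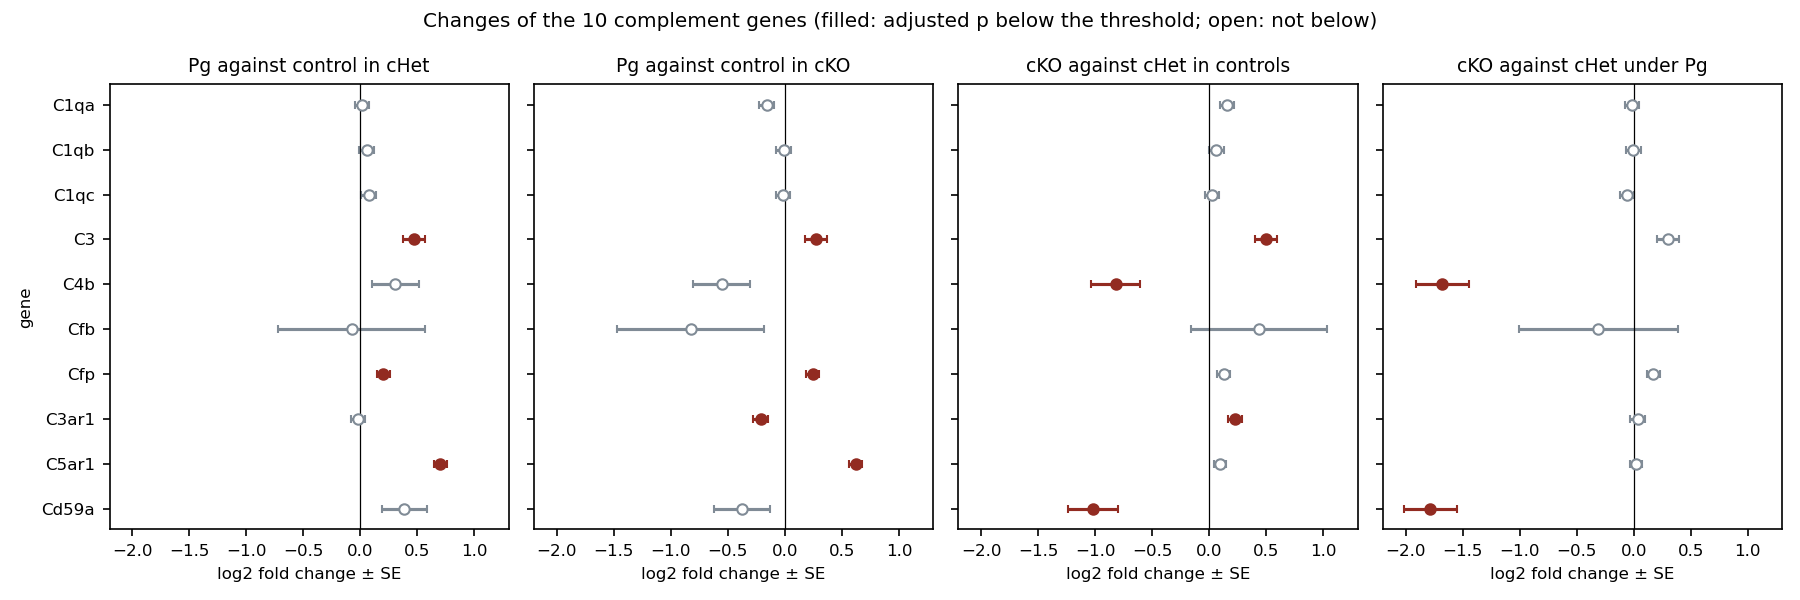
Log2 fold change (horizontal axis) ± SE of the 10 complement genes (vertical axis) in 4 comparisons, from edgeR. Filled points have an adjusted p below 0.05; C5ar1, C3 and Cfp are filled on the positive side in both Pg comparisons (under library size alone only C5ar1 is), and C4b and Cd59a on the negative side in both genotype comparisons, where their differences are -0.82 and -1.02 in controls and -1.68 and -1.78 under Pg.

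The clearest genotype differences were in 2 rare transcripts. C4b encodes the C4 protein, which is cut by the classical and lectin pathway proteases and bonds to the target surface (chromosome 17, 34728380 to 34743882, minus strand). It was at 3.90, 3.84 and 3.92 CPM in cHet controls and at 4.85, 5.63 and 3.95 CPM in cHet with Pg. In cKO it was at 2.26, 1.87 and 2.45 CPM in controls and at 1.68, 1.14 and 1.65 CPM with Pg. Every cKO library was below every cHet library. The counts behind these levels were 16 to 80 for each library, which limits the precision.

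C4b was lower in cKO by a log2 difference of -0.82 ± 0.22 in controls (adjusted p 0.0373) and -1.68 ± 0.23 under Pg (adjusted p 0.000351). Removing 1 of the 6 control libraries, whichever it was, ended the call in controls (adjusted p 0.0758 to 0.125), as did fits with the replicate number as a block (0.0631) and without the 4 libraries that stand apart (0.0572). The call under Pg held under all 20 alternatives, and so did the mean difference of -1.25 ± 0.16 (adjusted p 7.25e-05) under all 19. Reads of C4a, a near-identical copy with 6 to 22 counts for each library, can be assigned to C4b and the reverse, so the values of both are uncertain.

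Cd59a encodes a membrane-anchored inhibitor of pore formation (chromosome 2, 104095801 to 104115354, plus strand). It was at 5.34, 5.18 and 4.61 CPM in cHet controls and at 7.59, 5.98 and 6.23 CPM in cHet with Pg. In cKO it was at 2.86, 2.87 and 1.75 CPM in controls and at 1.48, 2.35 and 1.93 CPM with Pg. Here too every cKO library was below every cHet library. The log2 difference was -1.02 ± 0.22 in controls (adjusted p 0.0104) and -1.78 ± 0.23 under Pg (adjusted p 0.000157), with a mean of -1.40 ± 0.16 (adjusted p 1.86e-05). The call in controls was lost without cKO control 3 (0.0665). The neighbouring copy Cd59b had 0 to 5 counts for each library.

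With Pg, the log2 differences of C4b and Cd59a had opposite signs in the 2 genotypes, and none passed with TMM scaling, while under library size alone C4b (-0.80, adjusted p 0.0135) and Cd59a (-0.62, adjusted p 0.0456) were called lower in cKO. That of C4b was 0.31 ± 0.20 in cHet (adjusted p 0.27) and -0.55 ± 0.25 in cKO (0.0946), and in both genotypes its Pg and control libraries did not overlap. That of Cd59a was 0.39 ± 0.20 (0.15) and -0.38 ± 0.25 (0.268), with overlap in cKO. The difference between the 2 responses was -0.86 ± 0.32 for C4b (unadjusted p 0.0157, adjusted p 0.244) and -0.76 ± 0.32 for Cd59a (unadjusted p 0.0285, adjusted p 0.309), short of the threshold. None of the 10 genes was called for this interaction by edgeR, where 0.717% of all tested genes were called in either direction. DESeq2 called none either, and gave C4b and Cfb no adjusted p. By edgeR, 3 members, C4b, Cd59a and C3ar1, had an unadjusted p under 0.05, all with a lower response in cKO. The share of all genes under that unadjusted threshold is not given here, so this count has no background to be read against. Without the 4 libraries that stand apart 1 member, C1qa, was called, at -0.26 (adjusted p 0.027), in a fit that also called more of all genes. The controls then left are all of the low-Itgax set and the Pg libraries all of the high set, so this value cannot be told apart from a genotype difference between the sets. With all libraries, the C1qa genotype difference in controls was 0.0057 in the high-Itgax set (1 library of each genotype) and 0.23 in the other (2 of each).

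Cfb encodes factor B, the protease component of the alternative pathway convertase (chromosome 17, 34856374 to 34862518, minus strand). It was barely detected, with 1 to 17 counts in a library, or 0.0672 to 1.01 CPM, and the highest and the lowest library were a cKO control and a cKO Pg library. No comparison passed, and the SE of its log2 changes was 0.60 to 0.70 in the 4 pairwise comparisons. The gene Gm20547 overlaps Cfb on the same strand and had 0 counts in all libraries. How reads shared by overlapping genes were counted is not given in the sources used here, so the Cfb level may be understated.

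In the genotype comparisons fewer genes were called over the whole table. In controls 2 of 10 were called higher in cKO, C3 and C3ar1, and 2 lower, C4b and Cd59a, where 2.13% of all tested genes were called higher and 3.02% lower. Under Pg 2 were lower, C4b and Cd59a, where 1.2% of all genes were called lower and 0.652% higher. For the mean of both treatments 2 were higher, C3 and Cfp, and 2 lower, where 2.13% were called higher and 2.78% lower. The median log2 difference was 0.11 in controls and -0.01 under Pg over the members, and 0.00 in both over all genes. The 10 genes were picked with such results known, so these shares are descriptions.

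The wider complement list held 63 genes, the 10 included, all in the table, of which 32 were tested and 11 had 0 counts in every library. The roles below were assigned after values were seen. Of 7 terminal pathway genes only C8g was tested, and the other 6 had at most 5 counts in any library. C8g had 36 to 67 counts for each library. Fbxw5, with 656 to 986 counts, overlaps it on the other strand, and the strand setting is not given, so the C8g level is uncertain. Of 9 lectin pathway genes 3 were tested, of 20 regulators 7, of 11 receptors 10, and of 7 convertase and alternative pathway genes 6. With Pg 8 of the 32 tested genes were called higher in cHet, beside 18% of all tested genes, and none lower, also beside 18%. In cKO 6 were higher and 1 lower, beside 16.9% and 17.1% of all genes, so the count of 6 was near the background. The medians were 0.14 and 0.08. Between genotypes 2 were higher and 6 lower in cKO controls, beside 2.13% and 3.02% of all genes, and 0 higher and 6 lower under Pg, beside 0.652% and 1.2%. For the mean 2 were higher and 7 lower, beside 2.13% and 2.78%. The medians were 0.04, -0.07 and -0.02, and the list was drawn up with earlier results known. In the interaction no listed gene was called by edgeR or DESeq2, beside 0.717% of all tested genes by edgeR. At an unadjusted p under 0.05 by edgeR there were 4, all lower, and the share of all genes at that level is not given here.

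Among these other genes, Pg raised a fluid-phase recognition molecule and several surface receptors. Ptx3, a long pentraxin that binds C1q, was at 0.501, 0.408 and 0.498 CPM in cHet controls and 3.94, 1.69 and 3.48 CPM with Pg, and at 0.119, 0.498 and 0.0584 CPM in cKO controls and 1.08, 1.28 and 3.10 CPM with Pg. It rose by 2.68 ± 0.51 (adjusted p 0.000631) in cHet and 3.0 ± 0.61 (adjusted p 0.00116) in cKO, from 1 to 9 counts in control libraries to 16 to 56 with Pg. The cKO size rested on few counts: it was 4.24 without cKO control 2 and 2.37 without cKO Pg 3, called in both cases. Cd93, a myeloid receptor once described as a C1q receptor, rose by 0.30 ± 0.07 (adjusted p 0.00333) and 0.45 ± 0.07 (adjusted p 0.000118). Its range was 542 to 582 CPM in cHet controls, 651 to 744 with Pg, 496 to 553 in cKO controls and 649 to 752 with Pg.

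Itgb2, the shared beta chain of complement receptors 3 and 4, rose by 0.53 ± 0.14 in cHet (adjusted p 0.0114) and 0.48 ± 0.14 in cKO (adjusted p 0.019), and it also moved with the 2 sets of libraries. It was at 793, 558 and 589 CPM in cHet controls, where library 1 belongs to the set of high Itgax, and at 844, 989 and 959 CPM with Pg. In cKO it was at 735, 595 and 565 CPM in controls and at 912, 935 and 796 CPM with Pg, and the call was lost without cKO control 2 (0.0737), cKO control 3 (0.0717), cKO Pg 1 (0.0611) or cKO Pg 2 (0.0646). Itgam, the alpha chain of receptor 3, rose in cHet by 0.35 ± 0.10 (adjusted p 0.0127), from 138 to 154 CPM in controls to 174 to 201 CPM, a call lost without cHet control 3 (0.0503) or cHet Pg 1 (0.0554). Clu, a fluid-phase inhibitor of the terminal pathway, rose in cHet by 0.69 ± 0.22 (adjusted p 0.0183), from 2.80 to 4.56 CPM in controls to 5.13 to 7.37 CPM, a call lost without cHet control 3 (0.0978) or cHet Pg 3 (0.0971). In cKO the difference was 0.10 ± 0.10 for Itgam and -0.08 ± 0.22 for Clu, and neither passed; the interaction did not pass for Itgam (adjusted p 0.518) or Clu (0.286). Under library size alone, Cd93, Itgam, Itgb2 and Clu lost their calls in cHet, at log2 changes of 0.06, 0.11, 0.28 and 0.45, and Itgb2 also in cKO (0.24, adjusted p 0.164). With no filter on low counts Itgb2 passed in neither genotype (adjusted p 0.0504 and 0.0756).

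A group of recognition molecules, receptors and regulators was lower in cKO. Fcna, a ficolin that binds microbial sugars and can start the lectin pathway, was at 12.9, 12.5 and 11.95 CPM in cHet controls and at 2.92, 3.86 and 4.09 CPM in cKO controls. With Pg it was at 13.9, 11.0 and 10.7 CPM in cHet and at 5.04, 3.63 and 3.85 CPM in cKO. Every cKO library was far below every cHet library, with log2 differences of -1.78 ± 0.17 (adjusted p 3.45e-06) and -1.50 ± 0.17 (adjusted p 3.2e-05). Colec12, a membrane collectin and scavenger receptor, was lower by -0.66 ± 0.17 in controls (adjusted p 0.0288) and -0.75 ± 0.17 under Pg (adjusted p 0.0244), from 12.4 to 16.6 CPM in the 6 cHet libraries against 6.74 to 10.6 CPM in the 6 cKO libraries. The Colec12 call in controls was lost without cHet control 2 (0.101), cHet control 3 (0.0769), cKO control 2 (0.118) or cKO control 3 (0.0552), and the call under Pg without cHet Pg 1 (0.11), cKO Pg 1 (0.111) or cKO Pg 3 (0.098), in the fit of only the groups compared (0.0714) and without the 4 libraries that stand apart, where the difference was -0.47 (0.111).

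Vsig4, a macrophage receptor for C3 fragments, had 24 to 48 counts in each cHet library and 3 to 8 in each cKO library. From summed counts the cHet level was 7.20 times the cKO level in controls (95% exact interval 4.25 to 13.0) and 8.57 times under Pg (4.58 to 17.7), intervals that cover counting error only. The fitted differences were -2.82 ± 0.39 (adjusted p 0.00025) and -3.06 ± 0.42 (adjusted p 0.000361). Serping1, the inhibitor of C1r, C1s and other proteases, had 8 to 17 counts in each cHet library and 0 to 3 in each cKO library. Its cHet level was 5.04 times the cKO level in controls (2.07 to 14.8) and 14.4 times under Pg (4.60 to 72.4). The Serping1 test passed in controls (adjusted p 0.0348) and under Pg (adjusted p 0.00319). Removing 1 control library, whichever of the 6, ended the call in controls, at adjusted p 0.0601 to 0.124. It was also lost without cHet Pg 2 (0.0503) or cHet Pg 3 (0.0522), without the 4 libraries that stand apart (0.0688), and with no filter on low counts (0.0504). The fitted log2 difference under Pg, -3.70 ± 0.64, was -4.55 without cKO Pg 3 and -4.64 without the 4 libraries, called in both cases. C1ra, a protease bound to C1q, passed for the mean only, at -0.51 ± 0.14 (adjusted p 0.0364), which did not pass on removing 1 of 9 libraries, at adjusted p 0.0583 to 0.0947: cHet control 1 and 3, all 3 cHet Pg libraries, cKO control 2 and 3, and cKO Pg 1 and 2.

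**Figure D4:**
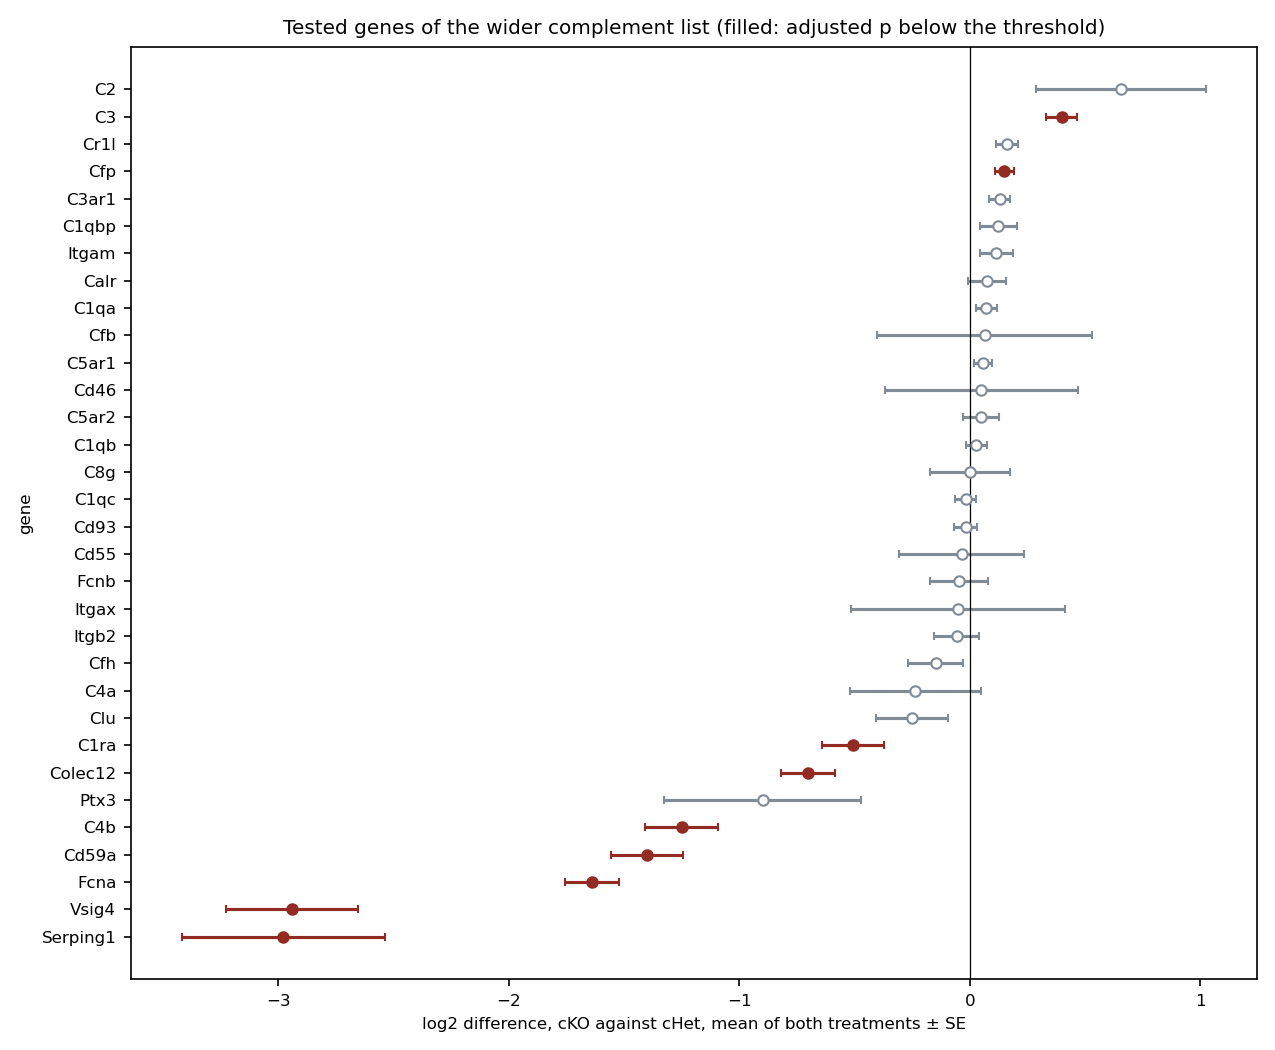
Log2 difference between cKO and cHet (horizontal axis), averaged over both treatments, ± SE, for the 32 tested genes of the wider complement list (vertical axis), from edgeR. Filled points have an adjusted p below 0.05: 7 are negative, from Serping1 at -2.98 to C1ra at -0.51, and 2 positive, C3 at 0.40 and Cfp at 0.15.

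The stromal and fibroblast markers were lower in cKO too. In controls the summed markers were at 37.4 to 39.0 CPM in cHet and 2.74 to 3.87 CPM in cKO, and 9 of 10 tested markers were called lower; under Pg they were at 37.2 to 47.2 and 4.20 to 5.92 CPM, again with 9 of 10 lower. The ratio of group means, cHet over cKO, was 11.2 in controls and 8.25 under Pg for the markers. It was 1.77 and 3.23 for C4b, 2.03 and 3.44 for Cd59a, 3.43 and 2.84 for Fcna, 7.20 and 8.54 for Vsig4, 1.58 and 1.68 for Colec12, 5.05 and 14.3 for Serping1, and 1.43 and 1.42 for C1ra. From controls to Pg the ratios of the markers, Fcna and C1ra were lower and those of C4b, Cd59a, Vsig4, Colec12 and Serping1 higher. None of these genes and none of the tested markers was called for the interaction. With Pg in cKO the median log2 difference of the markers was 0.57, with 1 of 10 called higher, where C4b was at -0.55 and Cd59a at -0.38, neither called. With Pg in cHet it was 0.18, with none called, where C4b was at 0.31 and Cd59a at 0.39, neither called. In these bulk libraries fewer cells of a type and less RNA in each cell cannot be told apart, and the part of the stromal signal in these differences was not tested. C3 and Cfp were higher in cKO for the mean of both treatments, by 0.40 and 0.15. Of the 10 macrophage markers 1, Lyz2, was called lower in controls, and their median log2 difference was 0.01. Of 4 tested endothelial markers 2 were called lower in controls (median -0.86) and 1 under Pg (median -0.69). Their summed level overlapped, at 21.7 to 30.7 CPM in cHet controls against 19.6 to 26.8 in cKO controls, and at 24.7 to 29.9 against 28.0 to 35.3 with Pg.

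**Figure D5:**
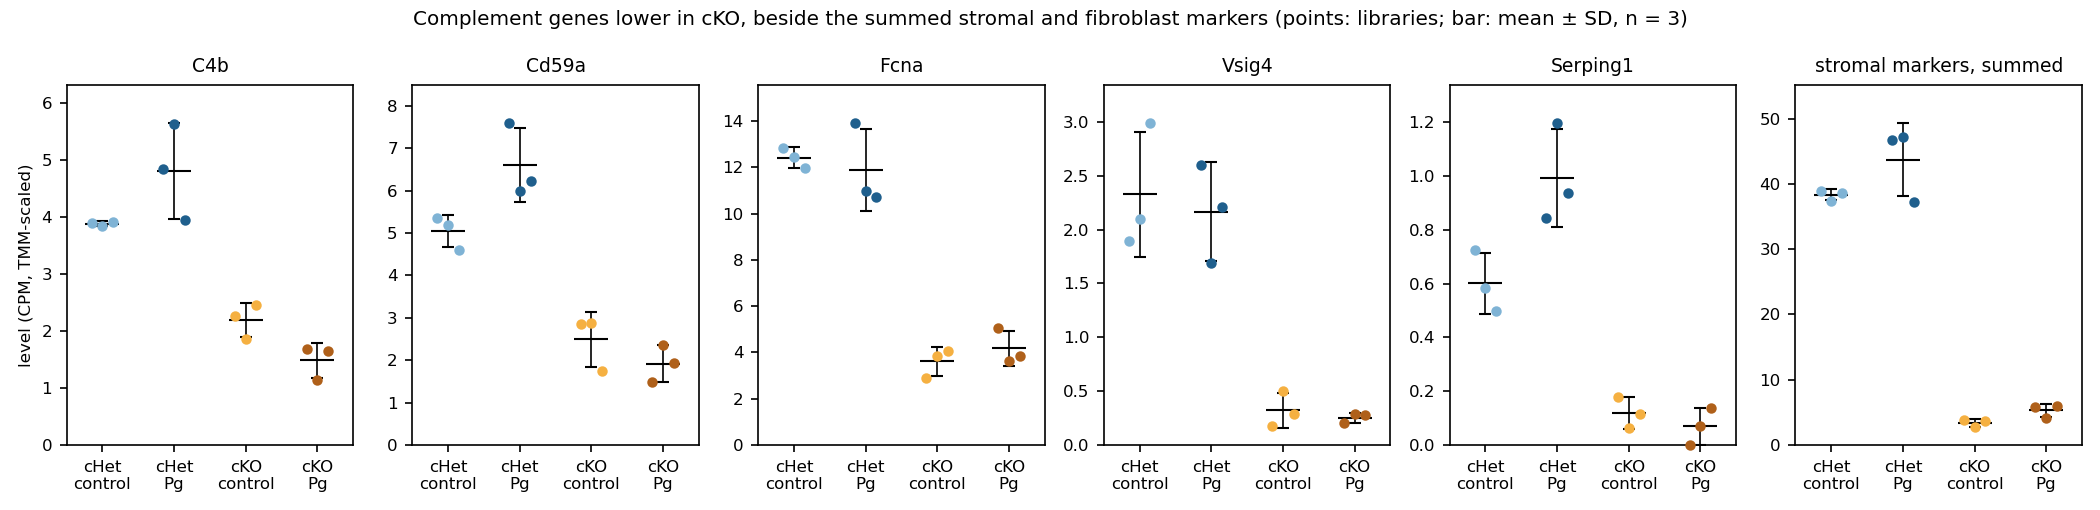
Levels in CPM (vertical axis, linear from 0, a different range for each panel) of C4b, Cd59a, Fcna, Vsig4 and Serping1 and the sum of the 12 stromal and fibroblast markers, by group. Points are libraries and bars give mean ± SD of 3; in all 6 panels every cKO library lies below every cHet library, and the marker sum is 37.2 to 47.2 CPM in cHet and 2.74 to 5.92 CPM in cKO.

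Genes with the most similar profiles were found by the root mean square distance between log2 profiles over the 12 libraries, each centred on its mean, among 13768 genes outside the list. For C5ar1 these were Trim36 (distance 0.05) and Stip1 (0.06), for Cfp Sik2 (0.05) and Myh9 (0.06), and for C3 Irak3 (0.12) and Strap (0.14). For C3ar1 they were Dhx9 (0.05) and Cnot2 (0.06). The nearest to C4b were Gvin1 (0.21) and Fat3 (0.26), and to Cd59a Dynlt1b (0.27) and Camk2b (0.29). For the flat C1q genes they were Khdrbs1 and Jtb (C1qa), Brk1 and Cops5 (C1qb), and Prrc2a and Derl2 (C1qc), at 0.04 to 0.05, and for Cfb, with its few counts, Efcab11 and Lck (0.42 and 0.43). The distances are descriptions over 12 libraries that share the group structure. Among the 10 genes themselves the closest pair was C1qb and C1qc (0.06), and C4b and Cd59a were at 0.37 from each other, nearer than either was to the other 8.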

How the data were processed

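RNA of bone marrow-derived macrophages was sequenced in 12 libraries, 3 in each of 4 groups. The values deposited by the authors are whole-number read counts, 1 column for each library. The submitters' processing notes name fastp, the aligner HISAT2 2.0.5, the counter featureCounts 1.5.0-p3 and the mouse build mm10. For strand, annotation release and reads shared between genes, settings were not given in the sources used here.

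With edgeR 4.0.16 in R 4.3.3, filterByExpr kept 13800 of 54532 genes, TMM (a trimmed mean of ratios) scaled the libraries, and a model with 1 coefficient for each group was fitted to all 12 libraries and tested by robust quasi-likelihood. The Benjamini-Hochberg adjustment ran over all tested genes in each of 6 comparisons, with a threshold of 0.05; a gene past it is called. SE is the log2 change over the square root of F. CPM use TMM-scaled library sizes, and CPM per kilobase the deposited gene length. The fit was tested on simulated data with known changes. Library totals of 14527674 to 16793803 limit precision for genes with few counts. Pairs of libraries in a group differed by more than the sampling noise of counts. The chi-square for each gene was 2.59 to 5.31 for pairs of the same library set and 12.8 to 17.2 for pairs of different sets. No library was therefore counted as a copy of another. This check cannot tell technical repeats of 1 culture from separate cultures.

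The 10 genes, the wider list and the marker lists were chosen with earlier results of these data known. Named were the 10 genes, Itga9, Lyz2, every gene of the wider list called in any comparison, and the 2 genes nearest in profile to each of the 10; other genes named were chosen after their values were seen. Alternatives were DESeq2 1.42.0, other scalings, no filter, a replicate block, fits of only the groups compared and leaving out each library. The split of the libraries into 2 sets was used as a term, and 4 libraries were left out, only after the data were seen. Both choices came from these same data and tend to lower the spread left in the fit. Calls gained under them are therefore not independent evidence. Replicate numbers did not pair the samples. Promoter sequences are RefSeq's, GRCm38.p6.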

Additional observations from a re-analysis of the deposited data

How the results depend on the processing

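Of 1150 values of the 10 genes under the alternatives, 286 kept a call and 765 stayed uncalled in the same direction, 42 lost a call, 20 gained one in the same direction, and 36 uncalled values and 1 called value (Cfp in cHet under library size alone) changed sign. Of the 36, 3 were then called. Library size alone gave 5 members called with Pg in cHet and 7 in cKO, where 6726 and 6572 of all 13800 tested genes were called. In cHet C1qa was then at -0.23, C1qb at -0.19 and C1qc at -0.17, all 3 called, and Cfp at -0.0449. C1qb under Pg between genotypes was at 0.0034. This scaling leaves composition uncorrected and shifted all genes. Without a filter C1qa with Pg in cHet was -0.0103 and C1qb under Pg 0.0018. With the library set as a term C1qb with Pg in cKO was 0.0253. Without the 4 libraries that stand apart 1 member was called for the interaction, which then cannot be told apart from a difference between library sets, C1qb under Pg was 0.0014 and the mean difference of C1qc 0.0157; the cause was not tested. Cfb gave no value there, and neither C4b nor Cfb an adjusted p for the interaction in DESeq2.

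Leaving out 1 library, members called ranged over 2 to 3 with Pg in cHet, 2 to 4 in cKO, 1 to 4 in controls, 2 to 3 under Pg, 3 to 4 for the mean and 0 to 0 for the interaction. Values that changed sign, all uncalled, ranged as follows with Pg in cHet: C1qa -0.00300 to 0.0355, C3ar1 -0.0728 to 0.0305 and Cfb -0.769 to 0.477. With Pg in cKO they were C1qb -0.0587 to 0.0236 and C1qc -0.0491 to 0.0458. In controls they were C1qc -0.0279 to 0.0587 and Cfb -0.00724 to 0.987, under Pg C1qa -0.0475 to 0.0176, C1qb -0.0482 to 0.0349 and Cfb -0.709 to 0.383, and for the mean Cfb -0.158 to 0.411.

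Same-numbered libraries correlated at -0.24 to 0.24, so the numbers were not treated as pairs. The replicate block called 549 of all genes in controls. With the replicate block 2 members were called in controls, where C4b and C3ar1 (adjusted p 0.0849) lost their calls, and Cfp lost its mean difference (0.0805); 5 genes of the wider list were called in controls, with Serping1 lost (0.0612); the block changed no other call of the complement genes named. Calls over all genes differed by over 1.5 times from 711 in controls (1101 without a filter, 1422 without the 4 libraries, 1722 with the library set), 255 under Pg (507, 771 and 846), 677 for the mean (1102, 1181 and 1526) and 99 for the interaction (389, 868 and 785, and 259 by DESeq2). Leaving out 1 library gave 319 to 828, 153 to 307, 499 to 715 and 42 to 207. Of the 32 tested genes of the wider list, 11 were called with Pg in cKO under library size alone, beside 6572 of all 13800 tested genes. For the interaction 4 of the list were called without the 4 libraries, beside 868 of all genes, and 1 with the library set, beside 785. Leaving out the 4 libraries was not run for the Pg comparisons, since the controls left are all of 1 library set and the Pg libraries all of the other. Low counts limit Cfb, C4b, Cd59a, Serping1 and Vsig4.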
